A study of Mus musculus with 30 samples.

Results

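The genes described here are 7 genes of nitric oxide and natriuretic peptide signalling through cyclic GMP (cGMP), measured in endothelial cells of the mouse brain. They are the nitric oxide synthases Nos1 and Nos3, the natriuretic peptide receptors Npr1, Npr2 and Npr3, the cGMP-dependent kinase Prkg1 and the cGMP phosphodiesterase Pde5a. They were chosen by name out of 48795 genes counted, because Nos1 and Npr2 had higher counts at older ages in these same libraries. The age slopes of the 7 genes are therefore given as a description, with no test. All 7 passed the filter on low counts, together with 16844 genes in all.

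The libraries came from primary brain endothelial cells of wild-type, untreated mice aged 2, 6, 12, 18 or 24 months, 3 male and 3 female at each age. All 30 libraries share this genotype, and no group received an agent. The question put by the design is how gene expression in these cells differs with age, with sex corrected for. The purification of the cells was not given in the sources used here, nor whether a library holds 1 mouse or several, so the spread between libraries may be that of pools.

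Gene counts per library lay between 24140980 and 50464366. Reads were summarised as counts per 1000000 gene reads (CPM) with library sizes scaled by the TMM method, and 3 counts, the limit that a count of 0 allows, amount to 0.0594 to 0.124 CPM. None of the 30 pairs of libraries of the same age and sex looked like 1 library deposited again, since their counts gave chi-square statistics of 16.0 to 153.5 for each degree of freedom. Endothelial markers matched the label: 10 markers summed to between 17652 and 24590 CPM in the 30 libraries, although 1 of them, the tight junction gene Cldn5, fell with age (−0.59 ± 0.14, log2 over 22 months ± SE, adjusted p = 0.00463, edgeR). Markers of other cells were also present, and 5 choroid plexus markers summed to between 159.4 and 6970 CPM. The share of reads outside annotated genes varied with age, from 5.06% ± 0.971 at 2 months to 10.4% ± 2.13 at 18 months and 7.19% ± 1.76 at 24 months (mean ± SD, n = 6). The 3 female libraries of 6 months and male replicate 1 of 12 months held the smallest shares of counts in longer genes, between 44.2 and 47.6%.

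Nitric oxide synthases make nitric oxide from arginine. Nos3 is the endothelial enzyme and Nos1 the enzyme first known from neurons. Nitric oxide binds soluble guanylate cyclase, a heterodimer that makes cGMP. The atrial and B-type peptides act through Npr1 and C-type natriuretic peptide through Npr2, membrane receptors that carry a guanylate cyclase in their own chain. Npr3 binds the same peptides, has no cyclase domain and clears them. Prkg1 is the main cGMP-dependent kinase of vessel walls, and Pde5a breaks cGMP down.

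The promoters of the pair of genes with the steepest age slopes are printed here, since the results turn on them. Sequences were taken from RefSeq on GRCm38.p6, from 250 bases before the annotated start of transcription to 50 bases after it, 5′ to 3′ on the strand of the gene. Capitals mark a match to a searched motif. The Nos1 window is chr5:117866589-117866888 on the plus strand and the Npr2 window is chr4:43631685-43631984 on the plus strand.
Nos1 promoter: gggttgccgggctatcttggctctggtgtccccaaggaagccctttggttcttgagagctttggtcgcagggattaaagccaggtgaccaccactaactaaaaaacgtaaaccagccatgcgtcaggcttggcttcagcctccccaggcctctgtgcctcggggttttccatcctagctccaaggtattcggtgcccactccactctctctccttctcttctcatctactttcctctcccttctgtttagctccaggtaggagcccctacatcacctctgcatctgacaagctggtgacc
Npr2 promoter: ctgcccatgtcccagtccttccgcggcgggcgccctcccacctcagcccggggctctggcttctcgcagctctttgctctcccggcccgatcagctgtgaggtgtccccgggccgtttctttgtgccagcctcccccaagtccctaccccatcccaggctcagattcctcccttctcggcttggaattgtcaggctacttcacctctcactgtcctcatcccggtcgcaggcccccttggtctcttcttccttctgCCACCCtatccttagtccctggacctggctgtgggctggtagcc

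The motifs searched on both strands were GGGCGG, the box bound by Sp1, CCACCC, bound by Krüppel-like factors, TGANTCA, bound by AP-1, TGACGTCA, bound by CREB, and TATAAA, the TATA box. The Nos1 window held none of these letters and had a GC content of 54.7%. The Npr2 window held 1 match, CCACCC, which began 6 bases past the start, and had a GC content of 64.0%. Among 32851 mouse promoter windows of the same length 31.5% held CCACCC on either strand, 35.7% held GGGCGG and the median GC content was 52.7%. The RefSeq start of Nos1 lies 85807 bases inside the GENCODE gene, which begins further upstream, so the printed window is not the one at the GENCODE gene start. Of the 7 genes 6 had a RefSeq promoter entry.

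Per kilobase of exon, Nos3 stood far above the other 6 genes. Mean levels over the 30 libraries were 127.7 CPM per kilobase for Nos3, 9.34 for Npr2, 3.55 for Npr1 and 1.52 for Pde5a. Prkg1 followed at 0.632, Nos1 at 0.624 and Npr3 at 0.242 CPM per kilobase. In the deposited counts the order Nos3, Npr2, Npr1, Pde5a, Prkg1 was the same in 30 of 30 libraries, but with reads over overlapping genes counted for both genes Npr2 was above Npr1 in 27 of 30. Prkg1 and Nos1 could not be ordered, since Prkg1 was the higher in 17 of 30 libraries, and Nos1 was above Npr3 in 25 of 30.

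**Figure D1:**
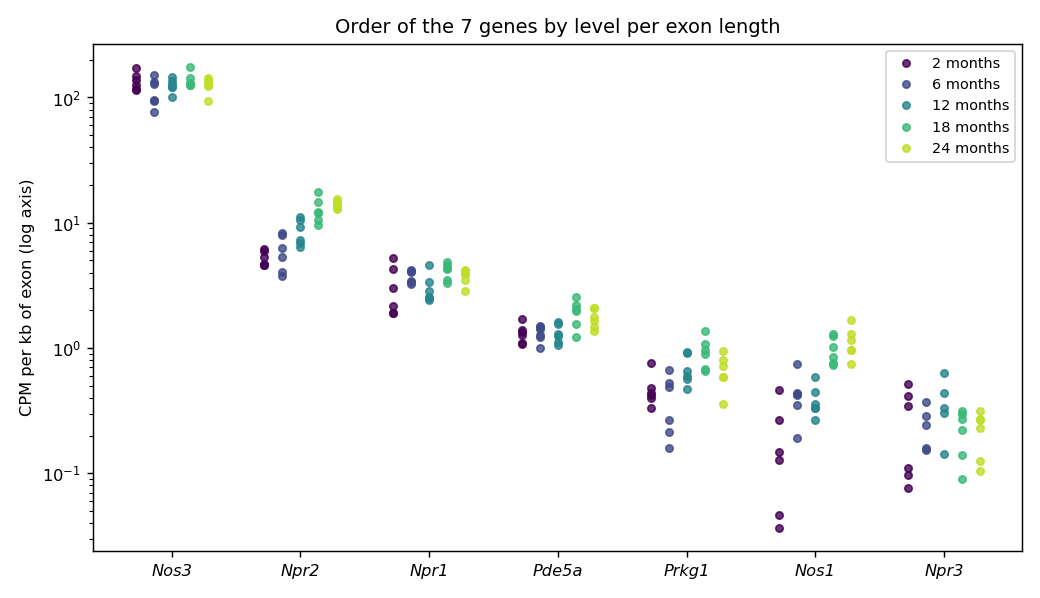
Level of each of the 7 genes in each of the 30 libraries, as CPM per kilobase of exon on a log axis, coloured by age; the 2 libraries in which Npr3 had no read are not drawn. Nos3 lies above every other gene in all 30 libraries, and the points of Nos1 spread from low values at 2 months to high values at 24 months.

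Reads over more than 1 gene were not assigned to any gene in the deposited counts, and this lowers some of these levels. Nos3 shares 32.3% of its exon length of 4132 bases with antisense genes, Gm15587 over 1040 bases and Atg9b over 294 bases, and 40.4% of its reads were put aside for this reason. The figure was 18.0% for Npr1, which shares 559 exon bases with Gm16048, and 3.02% for Nos1, which shares 268 bases with Gm26995. For Npr2 it was 2.61%, for Pde5a, which shares 55 bases with 4930447N08Rik, 1.80%, and no reads of Npr3 or Prkg1 were lost. Npr3 shares 321 bases with Gm5144, which was not analysed here. By age the loss lay between 39.6 and 41.5% for Nos3, between 17.0 and 19.7% for Npr1 and between 2.39 and 2.99% for Npr2. It varied more in proportion for Nos1, from 1.78 to 3.99%, and for Pde5a, from 1.31 to 2.31%. With reads over both genes counted for both, the slopes of Nos1 and Pde5a were 2.47 and 0.57. The libraries keep no strand, so reads of a gene and of its antisense partner cannot be told apart where they overlap.

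The fitted age slopes split the 7 genes. Nos1 and Npr2 had the steepest upward slopes, Prkg1 and Pde5a had smaller ones, and those of Nos3, Npr1 and Npr3 lay within 2 SE of 0. In edgeR's quasi-likelihood fit of log2 level on age with sex as a covariate, 4 of the 7 genes were past an adjusted p of 0.05 in the rising direction and 0 in the falling direction. Over the 16844 genes tested 5.72% rose and 5.22% fell, and 10.9% did either. The median slope was 0.56 over the 7 genes and 0.03 over all genes tested, as log2 change over the 22 months from 2 to 24. Nothing is read from this count, because the genes were chosen on that contrast.

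**Figure D2:**
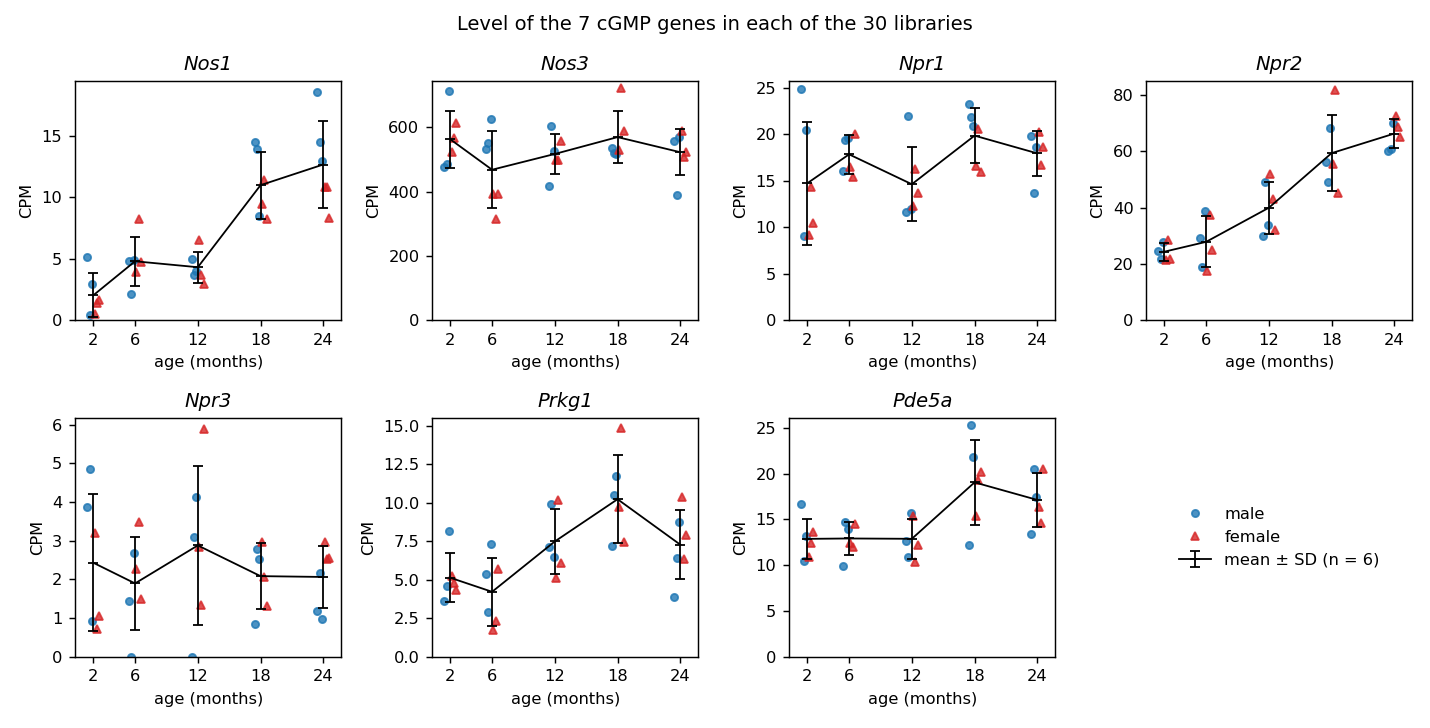
CPM of each of the 7 genes by age in months, 1 panel per gene, with a point for each library (males and females marked) and the mean ± SD over 6 libraries. The Nos1 and Npr2 panels rise to 12.7 and 66.4 CPM at 24 months, while the Nos3 means stay between 467.9 and 569.4 CPM.

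Nos1 (chr5:117781032-117958840 on GRCm38, plus strand) was a low transcript at every age, and its mean was 4.31 ± 1.26 CPM at 12 months and 10.99 ± 2.73 CPM at 18 months (SD, n = 6). At 2 months the lowest, median and highest of the 6 libraries were 0.409, 1.53 and 5.14 CPM. At 6 months they were 2.12, 4.77 and 8.25, and at 12 months 2.96, 3.85 and 6.49. The 6- and 12-month libraries thus overlapped each other and those of 2 months. At 18 months the values were 8.22, 10.4 and 14.5 CPM, and at 24 months 8.35, 11.9 and 18.6 CPM. All 12 libraries of 18 and 24 months lay above all 6 of 2 months, and the ranges of 18 and 24 months overlapped each other. The share of all genes so separated at 18 months was not computed. The 24-month mean was 6.29 times the 2-month mean (12.7 ± 3.56 against 2.01 ± 1.79 CPM, SD, n = 6). The fitted slope was 2.45 ± 0.37 (log2 over 22 months ± SE), a 5.46-fold difference. Counts behind these values ran from 13 to 903 reads per library, so the lowest 2-month values rest on few reads.

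Nos3 (chr5:24364810-24384474, plus strand), the main nitric oxide synthase of endothelium, had overlapping levels at all ages. The lowest, median and highest libraries were at 475.9, 544.9 and 711.7 CPM in the youngest group and at 390.4, 539.3 and 587.8 CPM in the oldest. At 6 months they were 315.0, 462.5 and 625.3, at 12 months 416.9, 513.1 and 603.4, and at 18 months 517.1, 533.4 and 723.4 CPM. No age stood apart from the others. The fitted slope was 0.04 ± 0.13, less than the SD of 0.20 between libraries of the same age and sex on the log2 scale. At 6 months the 3 female libraries averaged 365.6 ± 43.9 CPM and the 3 male libraries 570.1 ± 48.5 CPM (SD, n = 3), and these 3 female libraries are also among those with few counts in longer genes. The part of that library difference in the Nos3 values was not tested.

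The distance between the synthases therefore narrowed from the side of Nos1. Per kilobase, the Nos3 level was 1043 times that of Nos1 in the median library of 2 months, with a range from 249.8 to 3199. The median ratio was 284.2 at 6 months, 359.4 at 12 months and 158.2 at 18 months. At 24 months it was 122.4, with a range from 72.7 to 168.8, which does not overlap that of 2 months. This separation follows from the choice of Nos1 for its rise and is a description. The share of other gene pairs so separated was not computed. With reads over overlapping genes counted for both, the medians were 1736 at 2 and 198.3 at 24 months. Even at 24 months, transcripts of Nos1 were the small minority of the pair.

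Npr2 (chr4:43631935-43651244, plus strand), the receptor for C-type natriuretic peptide, had a higher mean at each successive age. The lowest, median and highest libraries were 21.4, 23.2 and 28.6 CPM at 2 months and 17.5, 27.2 and 39.0 CPM at 6 months. At 12 months they were 30.1, 38.5 and 51.9 CPM. All libraries from 12 months on lay above all 6 libraries of 2 months. For Nos1 the overlap at 12 months came from male replicate 1 of 2 months alone, at 5.14 CPM. The next Nos1 library of 2 months was at 2.95 CPM and the lowest of 12 months at 2.96 CPM. The 2 genes are therefore not ordered in time, and the share of all genes so separated at 12 or 18 months was not computed. At 18 months the values were 45.1, 56.0 and 81.9 CPM and at 24 months 60.3, 67.0 and 72.8 CPM. The 24-month mean was 66.4 ± 5.06 CPM (SD, n = 6), 2.73 times the 2-month mean of 24.3 ± 3.27. The fitted slope was 1.57 ± 0.16 (log2 over 22 months ± SE), a 2.98-fold difference. With counts between 492 and 2934 reads per library, Npr2 rests on more reads than Nos1.

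Of the 7 genes, Nos1 and Npr2 were the 2 whose ranges at 24 and 2 months did not overlap. Among all genes tested 3.74% were higher at 24 months in this way, and 6.5% were separated in either direction. This count too follows from the choice of the genes and is given as a description.

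Npr2 overlaps an antisense gene, Gm12473, over 266 bases or 5.70% of its exon length. Reads assigned to Gm12473 averaged 1.48 CPM and rose with age by 1.61 ± 0.29 (log2 over 22 months ± SE, adjusted p = 0.000445, edgeR). Without strand information these may be reads of either gene. When reads over both genes were counted for both, the Npr2 slope was 1.58. For Nos3, the antisense Gm15587 averaged 3.41 CPM with a slope of 1.07 ± 0.42 (adjusted p = 0.0976, edgeR) and Atg9b averaged 1.31 CPM with a slope of −0.39 ± 0.49 (adjusted p = 0.656), neither past the threshold.

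Npr1 (chr3:90450591-90465866, minus strand), the receptor of the atrial and B-type peptides, had overlapping ranges at 2 and 24 months. Its lowest, median and highest libraries were 9.09, 12.4 and 24.9 CPM at 2 months against 13.7, 18.6 and 20.2 CPM at 24 months. The means at 6, 12 and 18 months were 17.8 ± 2.06, 14.6 ± 3.97 and 19.8 ± 2.96 CPM (SD, n = 6). The fitted slope was 0.29 ± 0.18. Per kilobase, the level of Npr1 relative to Npr2 had a median of 0.479 at 2 months, with a range from 0.409 to 0.981. At 24 months the median was 0.265, with a range from 0.219 to 0.321, without overlap, which follows from the choice of Npr2 for its rise. With reads over overlapping genes counted for both, the ratio reached 1.13 at 2 months and 1.17 at 6 months and lay between 0.263 and 0.386 at 24 months, so Npr2 was the more abundant cyclase receptor in every library from 12 months on and in most of the younger ones.

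Npr3 (chr15:11839896-11907287, minus strand), the clearance receptor, had the lowest level per kilobase of the 7 genes. It ranged from 0 to 5.89 CPM over the 30 libraries, with 0 reads in male replicate 2 of 6 months and male replicate 1 of 12 months. The median libraries of 2 and 24 months were at 2.13 and 2.35 CPM. The slope was −0.18 ± 0.63, and libraries of the same age and sex had an SD of 1.62 on the log2 scale. The slopes of Nos3 and Pde5a are smaller in size than this SE.

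Downstream of the cyclases, Prkg1 (chr19:30564489-31765033, minus strand) and Pde5a (chr3:122728947-122859374, plus strand) were highest at 18 months rather than at 24. Prkg1, the kinase, had lowest, median and highest libraries at 3.63, 4.68 and 8.18 CPM at 2 months, 7.16, 10.1 and 14.9 CPM at 18 months and 3.88, 7.14 and 10.3 CPM at 24 months. The libraries of 2 months overlapped those of both later ages. Its slope was 0.95 ± 0.30 (log2 over 22 months ± SE). Pde5a, the phosphodiesterase, had lowest, median and highest libraries at 10.5, 12.8 and 16.6 CPM at 2 months, 12.2, 19.8 and 25.3 CPM at 18 months and 13.4, 16.9 and 20.5 CPM at 24 months. Again the libraries overlapped, and the slope was 0.56 ± 0.15. The means of Pde5a at 2, 6 and 12 months were all 12.9 CPM, and those at 18 and 24 months 19.0 and 17.1 CPM.

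The share of reads outside genes, which was highest at 18 months, moved with part of these slopes. With that share as a covariate the slope of Prkg1 was 0.35 in place of 0.95, and that of Pde5a 0.43 in place of 0.56. Nos1 and Npr2 kept most of theirs, at 2.15 and 1.30. Npr1 went to 0.01 and Nos3 to −0.13. In that fit 2.39% of all genes tested were past the threshold, and 1.57% in the rising direction.

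**Figure D3:**
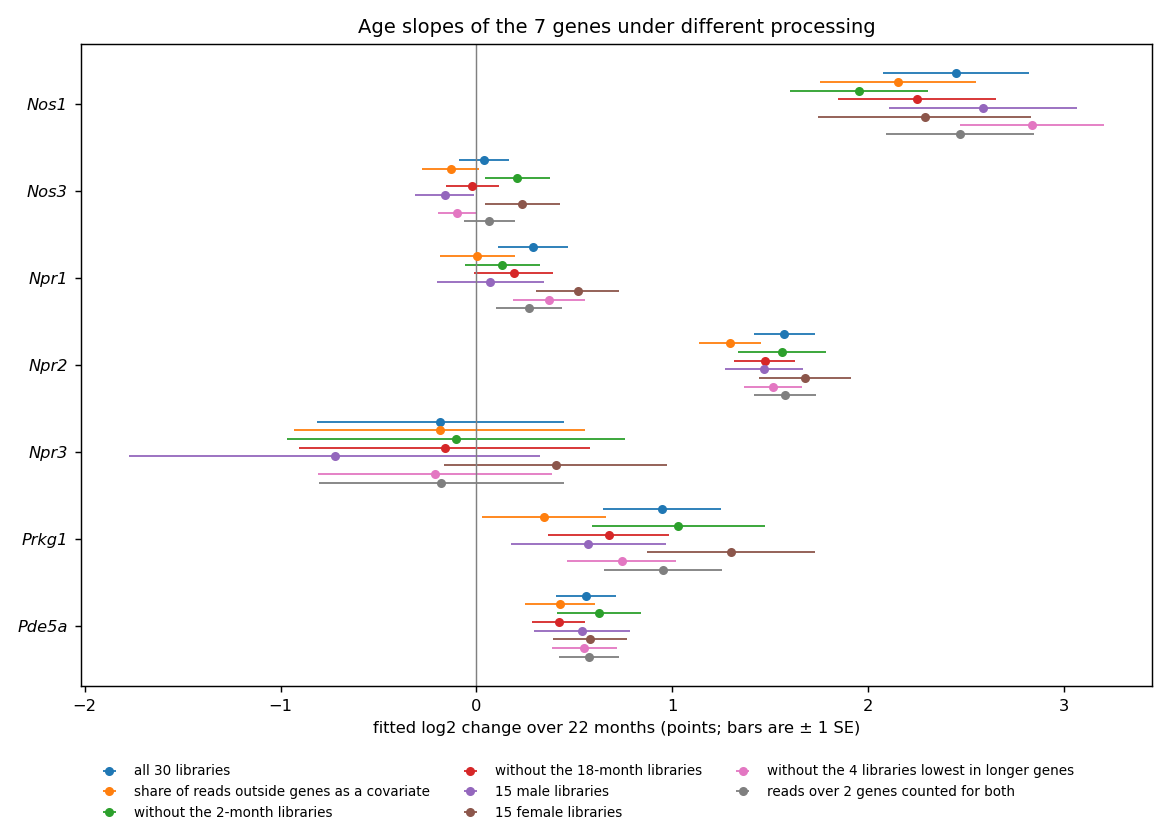
Fitted age slope of each of the 7 genes, as log2 change over 22 months with bars of ± 1 SE, in the fit of all 30 libraries and in 7 other fits named in the key. Nos1 and Npr2 lie far to the right of 0 in every fit drawn, Prkg1 moves from 0.95 to 0.35 with the covariate, and Nos3 stays close to 0.

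Sex was not used in choosing the genes, and the difference between females and males could be tested. No difference passed: at an adjusted p of 0.05, 0 of 7 genes did in edgeR's quasi-likelihood test and 0 of 7 in DESeq2, and at an unadjusted p of 0.05 also 0 of 7 in both. Over all genes 0.0831% passed in edgeR, and 5.62% had an unadjusted p under 0.05. The lowest p of the 7 genes was that of Npr1, whose difference was −0.22 ± 0.13 (female minus male, log2 ± SE; adjusted p = 0.922, edgeR), with a 95% interval from −0.47 to 0.03. Mean levels of Npr1 were 18.2 ± 4.68 CPM in males and 15.8 ± 3.41 CPM in females (SD, n = 15). For Nos1 the difference was −0.23 ± 0.26, with an interval from −0.74 to 0.28. For Nos3 it was −0.04 ± 0.09, from −0.22 to 0.14, and for Npr2 0.04 ± 0.11, from −0.18 to 0.26. The intervals of Nos3, Npr2 and Pde5a (−0.27 to 0.16) are narrow, and those of Prkg1 (−0.49 to 0.33) and Npr3 (−0.64 to 1.12) wide.

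The age slope was also compared between the sexes. No gene of the 16844 passed for the product of sex and age (0% in edgeR, 0 in DESeq2, and 916 or 5.44% at an unadjusted p of 0.05 in edgeR), and of the 7 genes 0 passed at an unadjusted p of 0.05 in either tool. The estimates depended on the libraries used. Without those of 2 months the difference was 0.87 for Nos3 (adjusted p = 0.549, edgeR) and −1.42 for Nos1 (adjusted p = 0.549). Their unadjusted p in that fit was 0.00598 and 0.0377 (edgeR). The share of all genes with an unadjusted p under 0.05 in that fit was not computed. The slope of Npr2 was 1.47 in the 15 male and 1.68 in the 15 female libraries, and the female minus male difference was 0.21 ± 0.32 with a 95% interval from −0.42 to 0.83. Nos1 had 2.59 in males and 2.29 in females, a difference of −0.30 ± 0.76 with an interval from −1.79 to 1.20. At 24 months the Nos1 mean was 15.3 ± 2.88 CPM in males and 10.0 ± 1.43 in females (SD, n = 3). Nos3 had −0.16 in males and 0.23 in females, a difference of 0.40 ± 0.25 with an interval from −0.09 to 0.88 (adjusted p = 0.877, edgeR). The slope of Prkg1 was 0.57 in males and 1.30 in females, a difference of 0.73 ± 0.60, and Pde5a had 0.54 and 0.58. The intervals of Nos1 and Prkg1 are too wide to tell equal slopes from unequal ones.

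A list of 66 other genes of the pathway shows what surrounds these 7. Of these, 48 could be tested in the same edgeR fit, 1 rose (2.08%), 7 fell (14.6%) and 40 did not pass, beside 5.72% and 5.22% of all genes. The median slope of the list was −0.03 and that of all genes 0.03. The share of genes that fell is a description of this list, which was written with earlier results of these data known. It also depended on the fit: 3 rose and 3 fell without the 2-month libraries, and again with age as a factor, 24 against 2 months. In DESeq2 1 rose and 8 fell.

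The inducible synthase Nos2 is the remaining enzyme of its family, and it fell. Its libraries lay between 29.1 and 50.5 CPM at 2 months and between 17.7 and 23.8 at 24 months, without overlap, and the slope was −0.61 ± 0.20 (log2 over 22 months ± SE, adjusted p = 0.0416, edgeR). The call for Nos2 rested on the 2-month libraries: without them its adjusted p was 0.737, and it was also lost in 14 of 30 fits that left out 1 library, with slopes between −0.68 and −0.50.

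Among 14 genes that supply the synthases with cofactor and substrate, 3 fell and 11 did not pass. Gch1, the first enzyme of tetrahydrobiopterin synthesis, went from a mean of 261.9 to 218.4 CPM between 2 and 24 months with a slope of −0.45 ± 0.13 (adjusted p = 0.0271, edgeR), although the ranges overlapped. Its call was lost without female replicate 1 of 24 months (adjusted p = 0.0512) or male replicate 2 of 2 months (adjusted p = 0.0610). Qdpr, which recycles tetrahydrobiopterin, had means of 116.5 and 97.0 CPM and a slope of −0.42 ± 0.12 (adjusted p = 0.0201, edgeR). Ddah2, a relative of the enzyme that degrades methylated arginines, lay between 75.7 and 96.0 CPM in the youngest and between 53.6 and 70.3 CPM in the oldest libraries, without overlap. The slope was −0.62 ± 0.16 (adjusted p = 0.0107, edgeR). The arginine transporter Slc7a1, the most abundant of the 14 at 414.6 CPM, had a slope of −0.33 ± 0.12 and did not pass (adjusted p = 0.0759, edgeR), but it did with the share of reads outside genes as a covariate, at −0.65 (adjusted p = 0.000756). It also passed without each of 3 single libraries, female replicate 2 of 6 months and female replicates 1 and 2 of 18 months. Asl, another of the 14, passed without male replicate 1 of 24 months (−0.28, adjusted p = 0.0364, edgeR). With all libraries Asl had −0.20 ± 0.09 (adjusted p = 0.157). Of the 14, 4 had ranges at 24 and 2 months that did not overlap, beside 6.5% of all genes tested. Ddah2 and Slc7a1 were lower at 24 months, and Spr and Ass1 were higher. The slopes of Spr and Ass1 were 0.02 ± 0.28 and 0.57 ± 0.29 (adjusted p = 0.974 and 0.217, edgeR). Without the 4 libraries lowest in longer genes Ass1 passed (1.04, adjusted p = 0.00215, edgeR), as did Slc7a1 (−0.45, adjusted p = 0.00710).

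Of 5 binding partners of the synthases, 1 fell. It was Dynll1, a dynein light chain that binds neuronal nitric oxide synthase, at −0.53 ± 0.17 (adjusted p = 0.0378, edgeR), with means of 380.6 and 325.6 CPM and a call lost in 13 of 30 fits without 1 library (slopes from −0.60 to −0.47). Cav1, the caveolar coat protein that binds Nos3, averaged 1069 CPM with a slope of −0.04 ± 0.12 (adjusted p = 0.854).

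No subunit of soluble guanylate cyclase passed. Gucy1a1 averaged 8.70 CPM with a slope of 0.81 ± 0.38 (adjusted p = 0.174, edgeR), and Gucy1b1 had 6.51 CPM and 0.69 ± 0.27 (adjusted p = 0.0931). The 24-month libraries spread widely, with Gucy1a1 between 3.75 and 17.6 CPM. Without male replicate 1 of 2 months Gucy1b1 passed, at 0.96 (adjusted p = 0.0108, edgeR). It also passed with all 2-month libraries left out, at 1.44 (adjusted p = 0.00895, edgeR). Of 5 other membrane cyclases 1 was tested, Gucy2d, at 1.11 CPM with a slope of 0.62 ± 0.73 (adjusted p = 0.628).

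Ligands of the natriuretic receptors were at the detection limit. None of 4 was tested: Nppc, the gene of C-type natriuretic peptide, averaged 0.117 CPM, and Nppb had 0 reads in all 30 libraries, which allows at most 0.0594 to 0.124 CPM. Of 4 genes that process or degrade the peptides none passed, and the most abundant, the protease Furin, averaged 73.2 CPM with a slope of 0.55 ± 0.21 (adjusted p = 0.0952, edgeR). Without male replicate 3 of 2 months Furin passed (0.69, adjusted p = 0.0294).

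Of 10 cGMP kinase genes and substrates, 1 rose and 1 fell. Ppp1r12a, the myosin phosphatase subunit that the kinase acts on in muscle, rose by 0.42 ± 0.12 (adjusted p = 0.0216, edgeR), from a mean of 56.6 to 65.9 CPM. With the share of reads outside genes as a covariate its slope was 0.13 (adjusted p = 0.749), and without the 18-month libraries, where its mean was highest at 75.8 ± 14.2 CPM (SD, n = 6), it was 0.29 (adjusted p = 0.0925). Rgs2, a regulator of G-protein signalling and a kinase substrate, had a slope of −1.37 ± 0.40 (adjusted p = 0.0234, edgeR), with a mean of 12.2 ± 11.8 CPM at 2 months against 4.25 ± 0.906 at 24 (SD, n = 6). A single 2-month library at 36.0 CPM, male replicate 1, carries much of it: without that library the slope was −0.77 and did not pass. Without the same library Pln, the regulator of the calcium pump of muscle that the kinase can act on, passed at 1.27 (adjusted p = 0.00738, edgeR). With all libraries it had 0.82 ± 0.35 (adjusted p = 0.130). Pln also passed with all 2-month libraries left out, at 1.97 (adjusted p = 0.0100, edgeR). Of 15 phosphodiesterase genes 9 were tested and 1 fell, Pde6d, at −0.38 ± 0.11 (adjusted p = 0.0200, edgeR), with means of 97.1 and 80.3 CPM. Pde6d encodes a carrier of prenylated proteins named as a phosphodiesterase subunit. The single channel gene tested, Cngb1, averaged 5.88 CPM and did not pass (−0.35 ± 0.21, adjusted p = 0.292).

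In the fit with the covariate, the share of reads outside genes, 0 genes of the pathway list rose and 2 fell, Nos2 at −0.99 and Slc7a1, while 1.57% of all genes rose and 0.819% fell. The slopes of Qdpr, Pde6d, Dynll1 and Ddah2 were then −0.14, −0.14, −0.26 and −0.36, none passing. Without the 18-month libraries Nos2 and Ddah2 kept their calls, Slc7a1 gained one, and the other 6 genes that had passed did not.

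**Figure D4:**
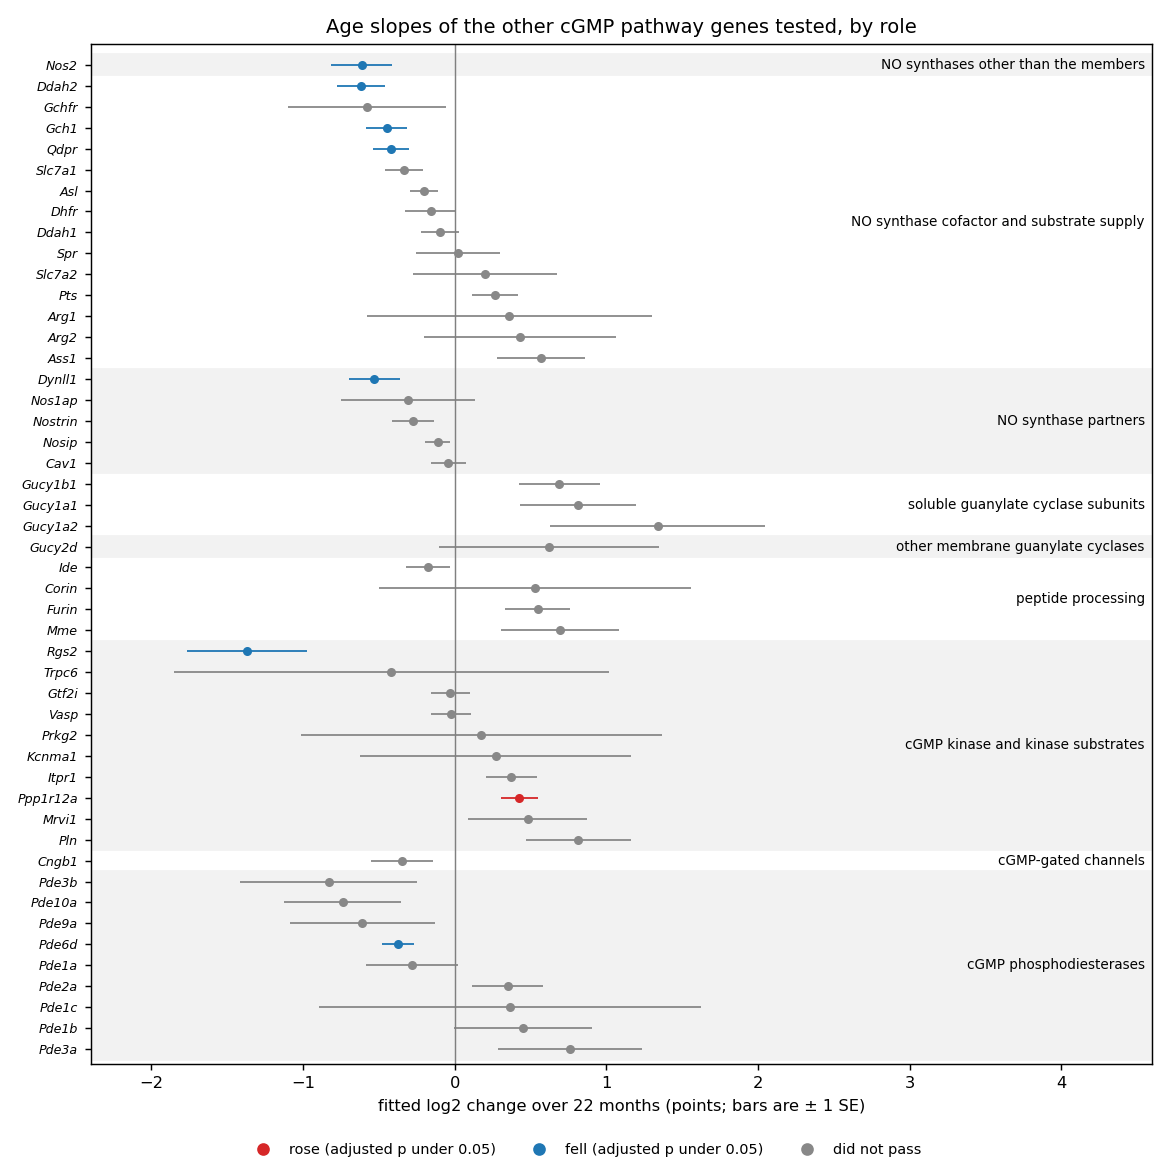
Fitted age slope, as log2 change over 22 months with bars of ± 1 SE, of the 48 tested genes of the surrounding pathway, grouped by role and coloured by whether they rose, fell or did not pass at an adjusted p of 0.05. The 7 genes that fell are spread over 4 roles besides Nos2 itself, and 1 gene, Ppp1r12a, rose.

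In bulk libraries such as these, fewer cells of a type and less RNA per cell cannot be told apart, and several of the 7 genes are also known from other cells. Pericytes and smooth muscle use the same kinase and phosphodiesterase, and neurons use Nos1. Summed over 8 markers, smooth muscle ranged from 78.4 to 625.7 CPM over the 30 libraries. Its medians were 193.6, 127.1, 166.9, 248.8 and 301.9 CPM at 2, 6, 12, 18 and 24 months. Of the 8 markers 1 rose (Des, 0.87, adjusted p = 0.0331, edgeR). Pericyte markers summed to between 368.7 and 1189 CPM, with medians of 620.7, 654.2, 588.8, 491.4 and 805.2 CPM at the same ages. Of these 8 markers 3 rose (Rgs5, Kcnj8 and Abcc9, edgeR adjusted p of 0.00910, 0.0171 and 0.0448). Over all genes tested 5.72% rose. The median slope was 0.77 over the smooth muscle markers, 0.64 over the pericyte markers and 0.03 over all genes tested. Neuronal markers were near the limit: 9 markers together gave 6.26 to 20.1 CPM, with medians of 9.91 CPM at 2 months and 10.7 CPM at 24, and 7 of the 9 were at 0 in some library. None of the 7 tested neuronal markers passed in either direction (edgeR). Choroid plexus markers had the highest sums outside endothelium, between 159.4 and 6970 CPM. Their medians were 2978 CPM at 2 months, 963.3 at 18 and 1225 at 24, and 4 of 5 fell (edgeR). Venous endothelial markers summed to between 723.5 and 1996 CPM, and 4 of 8 rose and 1 fell, beside 1 of 10 arterial markers that rose. The medians of the venous sum were nevertheless 1225 CPM at 2 months, 998.5 at 18 and 945.8 at 24. The marker that fell, Slc38a5, was the most abundant of the 8, at 471.2 CPM. The part of these lists in the slopes of the 7 genes was not tested.

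**Figure D5:**
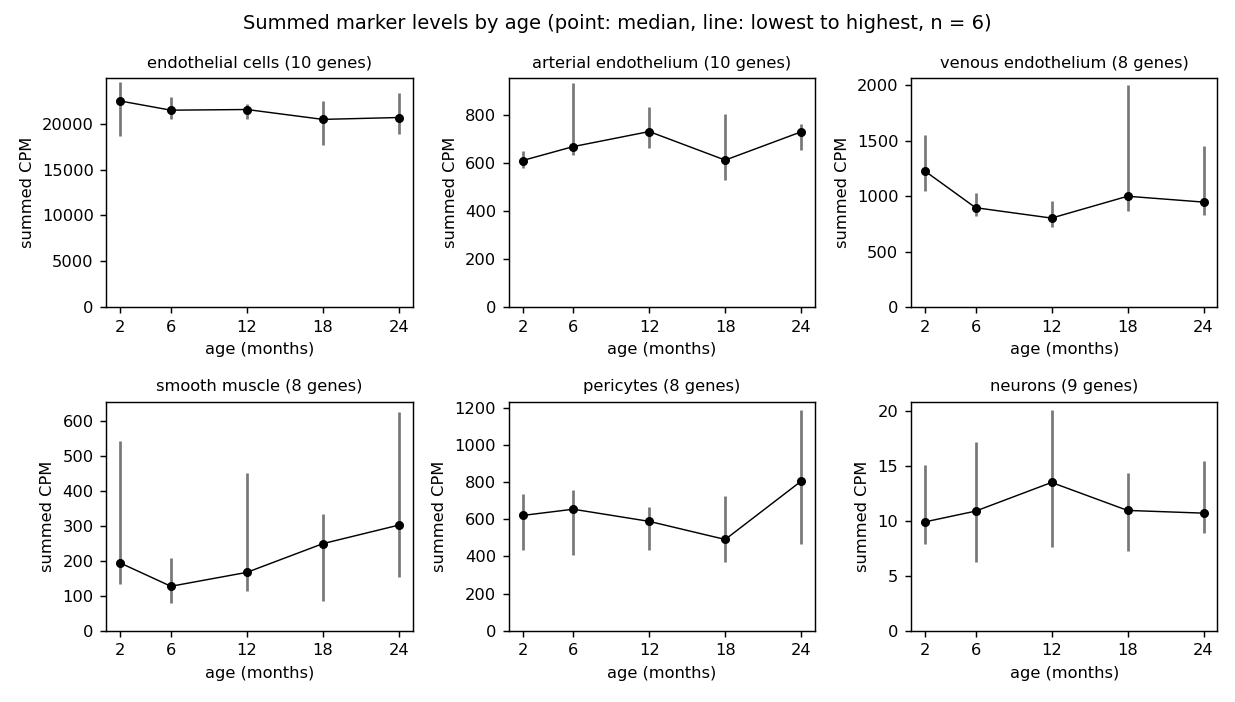
Summed CPM of the endothelial, arterial, venous, smooth muscle, pericyte and neuronal marker lists by age in months, with 1 panel per list, points at the median of 6 libraries and lines from the lowest to the highest library. The other marker lists, among them choroid plexus, are not drawn. Neuronal markers stay between 6.26 and 20.1 CPM, and the smooth muscle medians are 193.6 CPM at 2, 127.1 CPM at 6 and 301.9 CPM at 24 months.

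Libraries of the same age and sex also differ among themselves, and this spread was not used to choose the genes. After removal of the mean of each age and sex, 98 relations were computed over the 30 libraries, 21 between pairs of the 7 genes and 77 between a gene and a marker list, with 100000 permutations within groups and Benjamini-Hochberg adjustment. None of the 21 pairs passed. Nos1 and Npr2 had r = 0.420 (adjusted permutation p = 0.295) and rho = 0.503 (adjusted p = 0.277). Of the 77 marker relations, 2 passed, both with Nos3. Nos3 had a negative r with all 8 lists of cells other than endothelium, from −0.320 with astrocytes to −0.717 with smooth muscle (rho = −0.667, adjusted permutation p = 0.131 for r and 0.109 for rho), so that the sign is shared by lists that did not pass. Its r was −0.682 with oligodendrocytes, −0.575 with pericytes, −0.513 with microglia and −0.465 with fibroblasts (adjusted permutation p of at least 0.295). The endothelial lists did not share 1 sign. For Nos3 r was −0.379 with arterial markers (adjusted permutation p = 0.381) and 0.113 with venous markers (adjusted permutation p = 0.989). With the general endothelial list it was 0.442 (adjusted permutation p = 0.568). Nos3 was lower in libraries with more neuronal marker counts (r = −0.704, permutation p = 0.00036, adjusted p = 0.0353, and rho = −0.729, permutation p = 0.00044, adjusted p = 0.0431), and r was −0.745 without the 2 libraries farthest from the median. With choroid plexus markers r was −0.670 (permutation p = 0.00095, adjusted p = 0.04655) and rho −0.668 (permutation p = 0.0012, adjusted p = 0.0588), and r was −0.592 without 2 such libraries. Each of these sums rests largely on 1 gene. Nrgn averaged 6.66 CPM and the next neuronal marker, Snap25, 2.05 CPM. Among choroid plexus markers Ttr averaged 1834 CPM and the next, Kl, 28.9 CPM. Whether the other markers share these relations was not tested. For Nos1 and the neuronal list r was −0.016 (permutation p = 0.950, adjusted p = 0.989) and rho 0.011 (permutation p = 0.962, adjusted p = 0.994). Prkg1 and Pde5a had r of −0.119 and 0.240 with smooth muscle and of −0.109 and 0.162 with pericytes, none passing (adjusted permutation p of at least 0.830).

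The genes whose log2 CPM most resembled a member over the 30 libraries, by Pearson's r among genes of at least 1 CPM, are given as a description, since libraries share age. For Nos1 they were A230050P20Rik (r = 0.865), Rusc1 (r = 0.853) and Slc16a3, a lactate exporter (r = 0.841). Within groups of the same age and sex the same 3 genes had r of 0.557, 0.631 and 0.436. For Npr2 they were its own antisense gene Gm12473 (r = 0.924), Ric3, a chaperone of acetylcholine receptors (r = 0.836), and Vwf, the adhesive protein that endothelium stores for clotting (r = 0.834). Within groups r was 0.871 for Gm12473, 0.446 for Vwf and 0.088 for Ric3, so the likeness of Ric3 lay almost wholly between the groups.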

How the data were processed

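Read counts per gene of 30 brain endothelial libraries were analysed, 3 male and 3 female at each of 5 ages. The authors deposited raw whole-number counts per gene, laid out as STAR's gene counter writes them. The submitters' processing notes name STAR 2.5.2b, HTSeq and GRCm38. Per the labels' protocols, cDNA came from the SMART-Seq v4 kit, with Nextera XT libraries, 24 read from both ends and 6 from 1 end. Which 6 was not given in the sources used here, and instrument entered no model. The kit keeps no strand and adds no molecular identifiers, so PCR copies are counted and limits at a count of 0 cover counting error only. The unstranded column was used, since the forward strand held 49.7 to 50.0% of stranded counts. Lines that name no gene, among them reads over several genes (3.61 to 4.21%), were left out of library sizes. Reads lost to overlap are the excess of the summed strand columns over the unstranded one.

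Of 48795 gene identifiers 48349 matched gene names. Exon lengths, overlaps and coordinates (1-based) came from GENCODE M21, and promoters from RefSeq. In R 4.3.3 with edgeR 4.0.16, filterByExpr by age (minimum count 10, minimum total 15) left 16844 genes and put aside 31951. The quasi-likelihood model (TMM, robust) had age in months with sex, adjusted by Benjamini-Hochberg over all genes at 0.05. SEs came from the F statistic. The model was tested on simulated data. DESeq2 1.42.0 was an alternative, as were other size factors, no filter, a covariate, leaving out ages, sexes or single libraries, and 24 against 2 months. 2 more, counting overlapping reads for both genes and leaving out the 4 libraries lowest in longer genes, were chosen after seeing the data.

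The 7 genes, the pathway and marker lists were chosen with earlier results of these data known. The text names the 7 genes, every pathway gene past the threshold, the most abundant gene of a role with none, the 3 genes most like Nos1 and Npr2, and genes overlapping a member. Slc7a1, Asl, Spr, Ass1, Gucy1b1, Pln, Nppb, Cav1 and the single markers were added after their values were seen. Irag1 was matched as Mrvi1. The design text calls the replicates biological, and p-values measure the spread between these libraries. Marker lists also covered fibroblasts (0 of 6 rose or fell), astrocytes (2 of 7 fell), oligodendrocytes and microglia (0 of 6 each) and choroid plexus (4 of 5 fell).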

Additional observations from a re-analysis of the deposited data

Results flagged for a closer look

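Within each age the 6 libraries were searched for a highest or lowest value that stood apart, by Dixon's criterion at 95%, which sets the gap to the nearest library against the range. Over 35 groups, 7 genes at 5 ages, 2 stood apart, and chance gives about 1 in 20. Nos3 at 18 months had female replicate 2 at 723.4 CPM, where the next library was at 589.6 and the lowest at 517.1 CPM. Prkg1 at 2 months had male replicate 3 at 8.18 CPM, where the next was at 5.26 and the lowest at 3.63 CPM.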

How the results depend on the processing

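Nos1 and Npr2 kept their upward slopes past the threshold in all 11 other settings and in all 30 fits without 1 library. Pde5a kept it in all 30 such fits and not in 6 of the 11 settings, and Prkg1 not in 15 of the 30 and 7 of the 11. All these fits reuse the libraries in which the genes were chosen for a rise, so the passes are a description and not a test. Over all genes the count was 402 with the share of reads outside genes as a covariate (360 shared with 1843), 940 without the 2-month and 726 without the 18-month libraries, 193 in males and 623 in females, and 1308 to 2021 without 1 library. The count of 8 pathway genes became 2 with the covariate, 3 without 18 months, 0 in males and 3 in females. It was 5 to 9 without 1 library, with 5 without female replicate 1 of 24 months or male replicate 2 of 2 months. Without the 2-month libraries it was 6, of which 3 rose and 3 fell, and 4 were among the 8. With age as a factor, 24 against 2 months, 3 rose and 3 fell, and 2 of these 6 were among the 8. The Nos3 slope was −0.16 in males and that of Prkg1 0.35 with the covariate. Sex differences changed sign without the 4 libraries lowest in longer genes for Nos3 (0.048) and Prkg1 (0.076), and with the covariate for Npr2 (−0.033), which ranged from −0.020 to 0.078 without 1 library. The sex difference in slope changed sign for Nos1 without those 4 libraries (0.69) and without 1 library (−0.72 to 0.14), for Npr2 with the covariate (−0.078), for Npr3 without 2 months (−0.058) and for Pde5a with the covariate (−0.11), without 2 months (−0.070) and without 1 library (−0.10 to 0.15). The cause was not tested. Without the 4 libraries lowest in longer genes the sex difference in slope of Npr1 was 0.71 in place of 0.45 (adjusted p = 0.994, edgeR), and the sex differences of Nos1 and Npr1 were −0.57 and −0.33 in place of −0.23 and −0.22 (adjusted p = 0.528 and 0.454). Without the 2-month libraries the difference in slope was 0.87 for Nos3 and −1.42 for Nos1. Depth limits the lowest Nos1 value, which rests on 13 reads. No paired analysis was possible because the labels give no replicate number shared between ages or sexes.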
